A study of Mus musculus with 6 samples.

Results

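Synaptic vesicle and release machinery was described here through 10 genes, Snap25, Syp, Syn1, Syn2, Syt1, Syt4, Syt11, Vamp2, Stx1a and Nsf, and every probe set that the array annotation pairs with 1 of them alone. This gave 10 probe sets of the 12422 tested on the array, covering 9 of the 10 genes. Vamp2 had 2 probe sets and the other 8 genes had 1 each. Syn1 is paired with no probe set of its own in that annotation and was not analysed here. The study measured RNA of whole cerebellum from mice of strain 129S2/SvPasCrlf at postnatal day 11, on Affymetrix Murine Genome U74Av2 arrays with 1 array per sample. One group was 3 mice labelled male and lacking the X-linked cell adhesion gene L1cam (genotype -/Y). The other was 3 wild type siblings, for which the labels give no sex. Which part of L1cam was altered is not given in the sources used here. The labels name no transgene or drug for either group. The comparison asks whether transcripts of the presynaptic terminal differ in a cerebellum that developed without L1cam.

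Neurotransmitter is stored in synaptic vesicles and released when a vesicle fuses with the presynaptic membrane. Fusion is driven by SNARE proteins: Vamp2 (synaptobrevin) sits on the vesicle, Stx1a (syntaxin) and Snap25 on the plasma membrane, and the proteins zip into 1 complex. Syt1 is a calcium sensor that couples calcium entry to fusion, Nsf is the ATPase that takes spent SNARE complexes apart, synapsins tether vesicles to the reserve pool and Syp (synaptophysin) is an abundant vesicle membrane protein. In the mouse cerebellum the second postnatal week is a time of synapse formation, when granule neurons extend parallel fibres onto Purkinje cells.

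RefSeq promoter windows of build GRCm38.p6, running from 250 bases before to 50 bases after an annotated start, were found for 7 of the 10 genes (9 windows). Windows of 3 genes are shown as context for the gene regulation of this set: Syp and Syt11, which the array measured, and Syn1, which it did not. Capitals mark 2 motifs, each searched on both strands. TTCAGCACC is the left part of the RE1 element bound by the neuronal repressor REST, and GGGCGG is the GC box bound by Sp1 family factors. The windows are chrX:7638330-7638629 on the plus strand for Syp, chr3:88772550-88772849 on the minus strand for Syt11 and chrX:20920869-20921168 on the minus strand for Syn1, each written along the gene's strand.
Syp: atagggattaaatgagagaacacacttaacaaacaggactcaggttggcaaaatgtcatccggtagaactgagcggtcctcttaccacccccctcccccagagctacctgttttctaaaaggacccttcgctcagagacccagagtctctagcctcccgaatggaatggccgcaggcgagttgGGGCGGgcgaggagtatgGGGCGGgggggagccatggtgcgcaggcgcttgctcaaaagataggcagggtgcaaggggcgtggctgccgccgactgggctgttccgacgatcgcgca
Syt11: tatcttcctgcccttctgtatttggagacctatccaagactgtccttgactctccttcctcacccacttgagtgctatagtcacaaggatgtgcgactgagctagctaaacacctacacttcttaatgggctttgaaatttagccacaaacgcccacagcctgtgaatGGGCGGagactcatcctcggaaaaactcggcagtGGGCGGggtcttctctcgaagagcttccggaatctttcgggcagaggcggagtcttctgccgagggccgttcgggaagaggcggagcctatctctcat
Syn1: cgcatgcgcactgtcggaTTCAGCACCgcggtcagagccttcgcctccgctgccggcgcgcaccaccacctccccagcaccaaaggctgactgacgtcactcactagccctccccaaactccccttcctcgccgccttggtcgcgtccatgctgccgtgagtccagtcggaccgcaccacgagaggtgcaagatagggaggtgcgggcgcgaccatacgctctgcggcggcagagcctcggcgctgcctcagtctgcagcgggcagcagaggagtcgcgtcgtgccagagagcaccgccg
The RE1 part was found in the Syn1 window, at base 19 of the 300, and in none of the other 8 windows of these genes. It occurred in 0.371% of all 32851 windows of the table. GGGCGG was found in 5 of the 9 windows, those of Syp, Syt11, Stx1a, 1 of 2 for Syn2 and 1 of 2 for Syt1, against 35.7% of all windows. TATAAA, a core promoter element, was found in 0 of the 9, against 13.6% of all windows. These matches describe the letters of the windows only. Syp and Syn1 lie on the X chromosome, as L1cam does, and the other 8 genes lie on autosomes.

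Values are RMA log2 values, in which a difference of 1 is a doubling, and array medians ran from 8.87 to 8.94. L1cam itself was at 8.66 ± 0.16 (SD, n = 3) in wild type mice and at 8.06 ± 0.17 (SD, n = 3) in mice lacking it, with no overlap. Its difference of -0.60 was the most negative of all 12422 probe sets, with a limma unadjusted p of 0.000149 and adjusted p of 0.841. The position of its probes relative to the altered part is unknown here. Markers of the tissue were present: granule neuron markers averaged 11.40 to 11.66 over 10 probe sets and Purkinje cell markers 10.44 to 10.66 over 9. The 2 forebrain neuron probe sets averaged 7.73 to 7.83. The array labelled knockout 1 stood apart. Its signal for the 3' end of Gapdh exceeded that for the 5' end, a gap that widens when RNA is shorter, by 0.67, against -0.05 to 0.13 in the other 5. It also read lower than every other array by 1.48 at Eif2s3y and by 0.65 at Uty, both Y-linked, which goes against its label of male. Other Y-linked probe sets did not stand apart: Kdm5d read 7.217 against at least 7.218 elsewhere, and the 2 of Sry 9.09 against at least 9.11 and 5.93 against at least 5.81. Xist, expressed from an inactive X chromosome, read 6.31 to 6.41 in all 6 arrays. Several of these probe sets are dim, and a dim probe set can hide a difference. Among all probe sets, mean levels lay at percentile 8.39 for Xist, 20.7 for Kdm5d, and 57.0 and 3.67 for Sry. Those of Eif2s3y and Uty lay at 41.1 and 20.4. The sex of knockout 1 was not tested. Because knockout 1 stood apart, differences for the release genes are given with and without it. Since whole tissue was measured, fewer cells of a type and less RNA per cell cannot be told apart.

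None of the 10 release probe sets differed between genotypes past an adjusted p of 0.05 in limma, and on the whole array 0 of 12422 did, or 0% called. At an unadjusted p under 0.05 there was 1 of the 10, Syt4, against 631 of all probe sets, or 5.08%. The 2 genotypes overlapped at all 10, whereas 10.4% of all probe sets had no overlap. Knockout means were higher for 5 of the 10 and lower for 5, and differences ran from -0.19 to 0.20 log2. Their median was -0.0013, beside -0.023 over all probe sets, of which 37.7% had a higher knockout mean. That split moved with scaling: after centring each array on its median, 6 of the 10 and 55.4% of all probe sets were higher, and after quantile normalization 5 of the 10 and 47.8%. Without knockout 1, 8 of the 10 were higher with a median of 0.076, beside 39.5% of all probe sets and a median of -0.022.

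**Figure D1:**
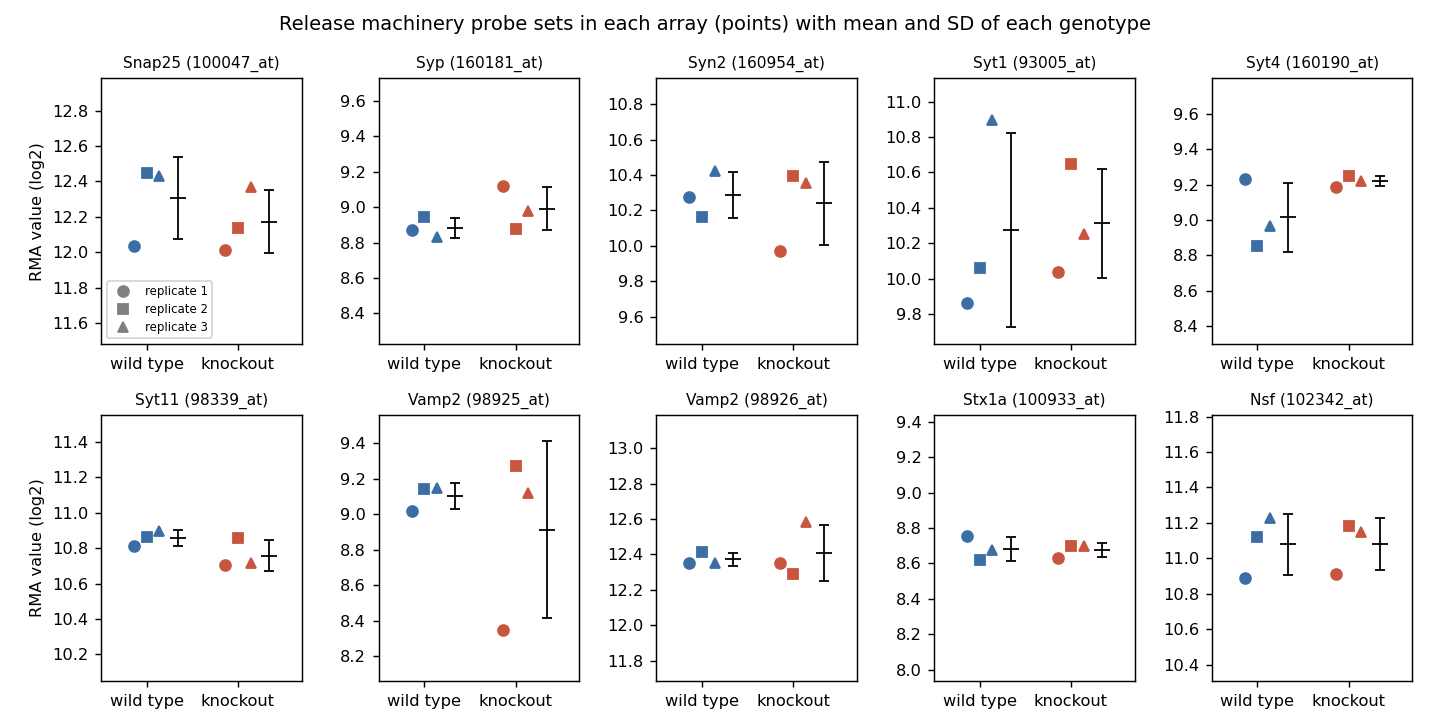
RMA log2 value (y axis, with the same span in every panel) of the 10 release machinery probe sets in each of the 3 wild type and 3 knockout arrays, with bars for the mean and SD of each genotype. The genotypes overlap in every panel, Stx1a is the tightest, and knockout 1 lies alone at 8.35 in the panel of Vamp2 probe set 98925_at.

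Among the membrane SNAREs, Snap25 read 12.04, 12.45 and 12.43 in wild type replicates 1 to 3 and 12.02, 12.14 and 12.37 in knockout replicates 1 to 3. The lowest array of each genotype was its replicate 1, at nearly the same value. The knockout mean was 12.17 ± 0.18 (SD, n = 3) and the wild type mean 12.31 ± 0.23 (SD, n = 3). The difference was -0.13 (SE 0.12, 95% interval -0.40 to 0.13, limma adjusted p = 0.932), which corresponds to 0.758 to 1.10 times the wild type level. Without knockout 1 it was -0.054. Without wild type 1 it was -0.27, still with an adjusted p of 0.928.

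Stx1a, the syntaxin of the presynaptic membrane, varied least. It read 8.75, 8.62 and 8.67 in wild type and 8.63, 8.70 and 8.70 in the knockouts. All 6 arrays lay within 0.13 log2, and 88.0% of all probe sets had a wider range. The difference was -0.0059 (SE 0.062, 95% interval -0.14 to 0.13, limma adjusted p = 0.989). The interval corresponds to 0.905 to 1.10 times wild type and was the narrowest among the 10 probe sets. Stx1a was also the dimmest of the 10, with a mean level at percentile 45.0 of all probe sets. Without knockout 1 the difference was 0.016.

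Vamp2, the vesicle SNARE, gave different patterns at its 2 probe sets. At 98925_at the wild type arrays read 9.02, 9.14 and 9.15 and the knockouts 8.35, 9.27 and 9.12. Knockout 1 lay 0.67 below the next lowest array, while the other 5 spanned only 0.25. At 98926_at the wild type arrays read 12.35, 12.41 and 12.35 and the knockouts 12.35, 12.29 and 12.58. There knockout 1 lay within the wild type range and knockout 3 was highest. The differences were -0.19 (SE 0.19, 95% interval -0.61 to 0.24, limma adjusted p = 0.932) and 0.036 (SE 0.080, 95% interval -0.14 to 0.21, limma adjusted p = 0.969). Without knockout 1 the first was 0.095, the opposite sign. The second was 0.064 without knockout 1 and -0.052 without knockout 3. A single array lay at least 0.5 log2 below all others at 16 probe sets, or 0.129% of the array, and 98925_at was 1 of 8 where that array was knockout 1. Those 8, looked up after their values were seen, also included Eif2s3y, Uty, the myelin gene Mobp, Gsdme and Mgat3, and 2 probe sets with no symbol. The part of the Gapdh gap in the low Vamp2 value was not tested.

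Syt1, the fast calcium sensor, had the widest spread. It read 9.87, 10.06 and 10.90 in wild type and 10.04, 10.65 and 10.25 in the knockouts. The lowest and the highest of the 6 arrays were both wild type, 1.03 log2 apart, a wider range than at 99.8% of the probe sets. The difference was 0.039 (SE 0.24, 95% interval -0.48 to 0.56, limma adjusted p = 0.985), so a change from 0.715 to 1.48 times wild type lay within the interval. Leaving out 1 array moved it between -0.17 (wild type 1) and 0.35 (wild type 3), and without knockout 1 it was 0.18.

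Syt4, a synaptotagmin whose first calcium-binding domain carries a substitution that weakens calcium binding and which is found on several kinds of vesicle, had the largest positive difference. It read 9.23, 8.85 and 8.96 in wild type and 9.19, 9.25 and 9.22 in the knockouts. The knockout arrays lay within 0.057 of each other, and wild type 1 lay among them while wild type 2 and 3 lay below. The knockout mean was 9.22 ± 0.029 (SD, n = 3) against 9.02 ± 0.20 (SD, n = 3). The difference of 0.20 (SE 0.091, 95% interval 0.00076 to 0.40) is 1.15-fold, with an unadjusted p of 0.0493 and a limma adjusted p of 0.922. Over the omission of each array it stayed positive, from 0.12 without wild type 2 to 0.31 without wild type 1, and was 0.22 without knockout 1. In none of these fits did it pass.

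Syt11, the closest relative of Syt4 in the set, read 10.81, 10.86 and 10.90 in wild type and 10.70, 10.86 and 10.72 in the knockouts. Knockout 1 and 3 lay below all wild type arrays and knockout 2 among them. The difference was -0.099 (SE 0.066, 95% interval -0.24 to 0.047, limma adjusted p = 0.927), opposite in sign to that of Syt4. It was -0.071 without knockout 1 and reached -0.15 without knockout 2.

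Of the vesicle proteins, Syp read 8.87, 8.95 and 8.83 in wild type and 9.12, 8.88 and 8.98 in the knockouts. Knockout 1 was the highest of the 6 arrays, although that array was the lowest of 6 for Snap25, Syn2, Syt11 and the Vamp2 probe set 98925_at. The difference was 0.11 (SE 0.074, 95% interval -0.057 to 0.27, limma adjusted p = 0.927), and 0.044 without knockout 1. Syn2, a synapsin, read 10.28, 10.16 and 10.42 in wild type and 9.97, 10.39 and 10.36 in the knockouts. Its difference of -0.046 (SE 0.11, 95% interval -0.30 to 0.20, limma adjusted p = 0.974) came with knockout 1 lowest by 0.19, and without that array it was 0.089.

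Nsf, which recycles SNAREs after fusion, read 10.89, 11.12 and 11.23 in wild type and 10.91, 11.18 and 11.15 in the knockouts. As for Snap25, replicate 1 was the lowest array of each genotype. The difference was 0.0033 (SE 0.099, 95% interval -0.22 to 0.22, limma adjusted p = 0.996). That interval corresponds to 0.860 to 1.17 times wild type. Without knockout 1 the difference was 0.087.

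**Figure D2:**
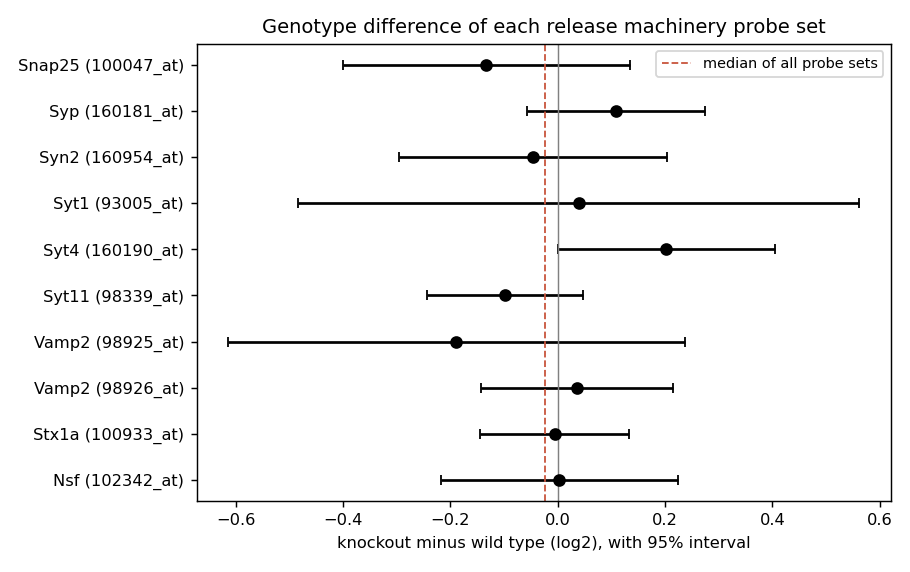
Knockout minus wild type difference (x axis, log2) of each of the 10 release machinery probe sets, with its 95% interval from limma; the dashed line is the median of all probe sets, -0.023. Every interval but that of Syt4 spans 0, and those of Syt1 and Vamp2 probe set 98925_at are the widest.

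The genotype difference was smaller than the range of the wild type arrays at 8 of the 10 probe sets, smaller than the range of the knockout arrays at 9 and smaller than both at 7. Set against each probe set's mean over the 6 arrays, the 10 release probe sets had a median deviation of -0.14 in knockout 1. The median was -0.019 in wild type 1, and the remaining 4 arrays ranged from 0.016 to 0.11. Knockout 1 was the lowest array at 4 of the 10, at 31.5% of the 130 probe sets of other release and vesicle cycle genes, and at 16.3% of all probe sets. Wild type 3 was the highest array at 4 of the 10, at 22.3% of the 130 and at 16.9% of all. Over all probe sets knockout 3 was most often the lowest array (29.2%) and wild type 1 most often the highest (24.2%), whereas among the 10 knockout 3 was lowest at 0 and wild type 1 highest at 1. Wild type 1 and knockout 1 were set beside the other 4 arrays after their values were seen. Some marker means were lower in wild type 1 and knockout 1 than in the other 4 arrays, and others were not. The granule neuron mean was 11.40 in both and 11.49 to 11.66 in the other 4. The Purkinje mean was 10.44 and 10.45 in those 2 arrays and 10.57 to 10.66 in the other 4. The oligodendrocyte mean was 10.21 and 9.97 against 10.29 to 10.49, and the astrocyte and Bergmann glia mean 10.99 and 11.00 against 11.03 to 11.14. Within these lists probe sets went both ways. Among granule neuron markers, Gabra6 92940_s_at read 11.30 and 11.34 against at least 11.70. Zic1 and Pax6 instead were highest in knockout 1, at 14.08 and 10.98. Of the Purkinje markers, Calb1 was highest in knockout 1, at 12.29. In the oligodendrocyte list, Mbp 96310_at read 9.830 and 9.873 against at most 9.826. In the astrocyte and Bergmann glia list, Aldoc read 12.47 and 12.51 against at least 12.84, and Gfap 94144_g_at read 11.34 and 11.53 against 10.89 to 11.11. The granule progenitor mean was highest in those 2 arrays, at 8.98 and 8.97 against 8.89 to 8.93. The microglia mean was 8.75 and 8.68 against 8.57 to 8.71. The choroid plexus mean was 9.14 in wild type 1 and 10.03 in knockout 1, against 9.17 in knockout 3 and up to 10.09 elsewhere. The blood mean was 12.40 and 12.38 against 12.21 to 12.62, and the endothelium mean 9.09 and 9.04 against 8.98 to 9.08. All 3 blood probe sets had a higher knockout mean, and 0 passed. Snap25, Nsf, Syt1 and Vamp2 98926_at lay below their 6-array means in both wild type 1 and knockout 1. For Snap25 and Nsf this repeats what was stated above, that replicate 1 was the lowest array of each genotype. The share of all probe sets below their means in both arrays was not counted. Syt4 lay above its mean in both, by 0.11 and 0.071, and the remaining release probe sets went opposite ways in these arrays. Being below was not particular to them: Syt1 was also below its mean in wild type 2 (-0.23) and Snap25 in knockout 2 (-0.10). The part of cell content in these array differences was not tested.

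**Figure D3:**
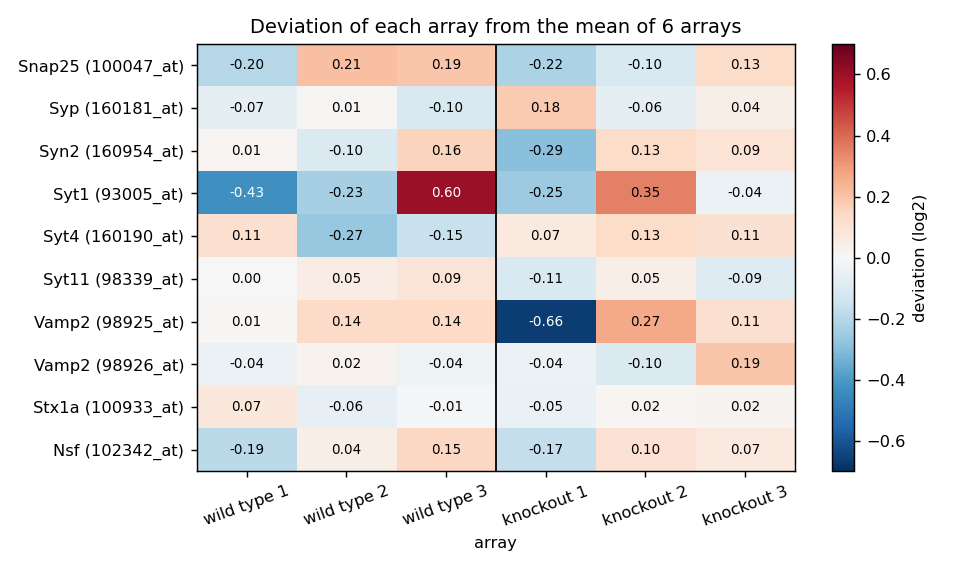
Deviation (log2, colour and printed number) of each array from the 6-array mean of each release machinery probe set, wild type arrays left of the line and knockouts right. Knockout 1 holds the lowest cell, -0.66 at Vamp2 probe set 98925_at, and wild type 3 the highest, 0.60 at Syt1.

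A wider set of release and vesicle cycle genes was sorted by role into 6 lists. Of their 149 genes, 94 were measured by 130 probe sets. None of the 130 passed in either direction. There were 48 with a higher knockout mean and 82 with a lower one, a share of 36.9% higher beside 37.7% over all probe sets, and the median was -0.025 beside -0.023. Without knockout 1 the shares were 53.8% and 39.5%, and after median centring 54.6% and 55.4%. The genotypes did not overlap at 9.23% of the 130, with 10.4% over all probe sets. Unadjusted p was under 0.05 at 3 of them, or 2.31%, with 5.08% over all.

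Other SNAREs had 12 of 33 probe sets higher and a median of -0.034. Bet1, a SNARE of the early secretory pathway, differed by -0.21 (limma adjusted p = 0.922) at a dim probe set and by -0.034 at another, and Vamp3, which acts in endosomal recycling, by 0.17 (adjusted p = 0.922). Regulators of SNAREs and their disassembly gave 6 of 14 higher, with median -0.014. There Stxbp2, a Munc18 family protein, differed by -0.11 and -0.083 at 2 probe sets and Vapb, a protein of membrane contact sites, by -0.087. Other synaptotagmins and calcium sensors gave 3 of 13 higher, with median -0.037. Syt3 had the smallest unadjusted p of all 130, 0.00477. Its probe set 102116_f_at read 8.59, 8.64 and 8.58 in wild type and 8.33, 8.45 and 8.37 in the knockouts, without overlap, a difference of -0.22 (SE 0.061, limma adjusted p = 0.885). The suffix marks a probe set whose probes can match related transcripts, and the other Syt3 probe set, 92916_at, differed by -0.081 with overlapping groups.

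At the active zone, the membrane region where vesicles dock, 7 of 16 probe sets were higher and the median was -0.0082. Cask, a scaffold kinase that binds neurexins, read 10.92, 10.96 and 10.86 in wild type and 11.05, 11.04 and 11.06 in the knockouts, without overlap. Its difference was 0.14 (SE 0.059, limma adjusted p = 0.922), again at a probe set open to matches with related transcripts. Rab3ip, an exchange factor that binds Rab3, differed by 0.15 (adjusted p = 0.922), but by -0.045 at its other probe set. Vesicle membrane proteins and transporters gave 9 of 22 higher (median -0.015). Syngr1 (synaptogyrin) was at -0.13 and Sypl, a relative of Syp, at 0.15. Vesicle endocytosis gave 11 of 32 higher (median -0.044). Clta, a clathrin light chain, differed by 0.28 with a knockout SD of 0.33, but by 0.022 at its other probe set. Ap2a2, an adaptor subunit, differed by 0.10 and 0.055 at its 2. For the 18 probe sets of ionotropic glutamate receptor subunits, the postsynaptic counterpart, knockout means were higher at 2 and lower at 16 (median -0.075), a share of 11.1% higher beside 37.7% over all probe sets. Unadjusted p was under 0.05 at 3, or 16.7%, with 5.08% over all probe sets. All 3 were of the AMPA receptor subunit Gria2, which differed by -0.46, -0.38 and -0.37 there (limma adjusted p = 0.897, 0.922 and 0.922). The probe sets at -0.38 and -0.37 are open to matches with related transcripts. The other Gria2 probe set differed by 0.014, but its wild type mean of 5.40 lay close to the lowest values of the array. No receptor probe set passed, and the contrast with the release genes was not tested.

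**Figure D4:**
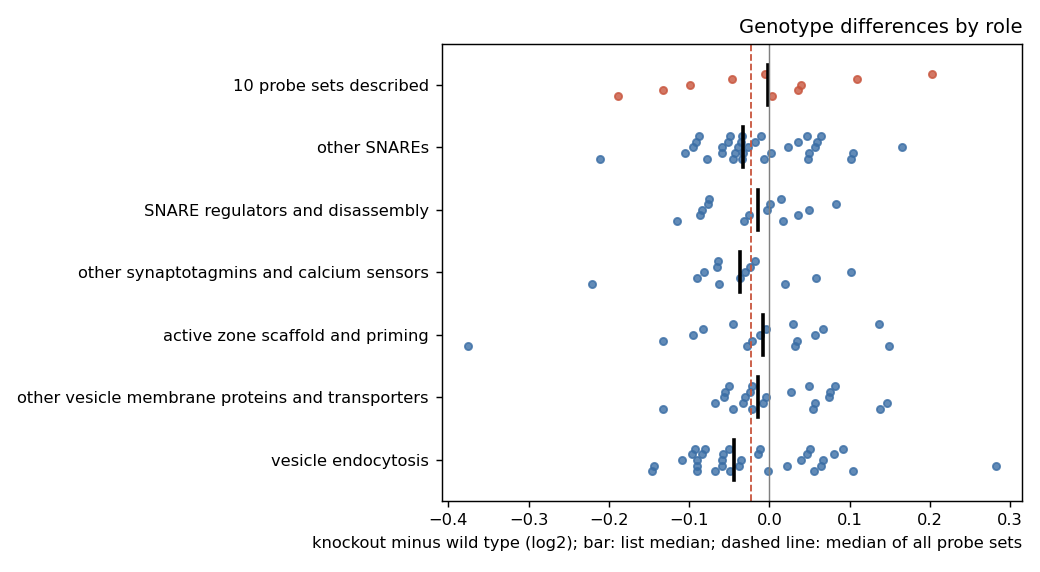
Knockout minus wild type difference (x axis, log2) of every probe set of the 10 described and of the 6 lists of other release and vesicle cycle genes, 1 point per probe set, with a bar at each list's median and a dashed line at the median of all probe sets, -0.023. All list medians lie between -0.044 and -0.0013, and the point farthest left, at -0.38, is the active zone protein Pclo (adjusted p = 0.922).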

How the data were processed

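The authors summarised each probe set with RMA on the log2 scale, as the submitters' processing notes record; version, settings and genome build: not given in the sources used here. RMA equalizes arrays, which hides any overall change in RNA amount. Levels of different probe sets were compared only to mark dim ones and to set markers of the tissue beside forebrain markers. Of 12488 probe sets, 66 controls were left out. The annotation gave 1 symbol for 10833, several for 396 and none for 1193, and 10817 identifiers were found in the RefSeq table of GRCm38.p6, with 0 symbols changed. Genotype was tested with limma 3.58.1 in R 4.3.3 (lmFit, eBayes, 2-sided, Benjamini-Hochberg over 12422 probe sets, threshold 0.05) and checked on simulated data. Each array was taken as 1 animal, since the design text speaks of 3 per genotype. Arrays carry no read depth; their number limits precision, and the 95% interval of a difference reached 0.158 log2 to each side at the median. The genes and lists were chosen with earlier results of these data known. Named by rule were all probe sets of the 9 genes, the 2 with the smallest unadjusted p of each list and L1cam. Pclo, and the genes named for low values in knockout 1, were chosen after their values were seen. So were the single cell type markers, such as Aldoc and Gfap, and the setting of wild type 1 and knockout 1 beside the other 4 arrays. No alternative was added after seeing the data.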

Additional observations from a re-analysis of the deposited data

How the results depend on the processing

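None of the 10 release probe sets passed under any of 17 other settings (Vamp2 98925_at is absent from the one with 1 probe set per gene), and on the whole array the count was 0 except for 1 probe set, of Sox11, without knockout 3 (range 0 to 1 over single omissions). At an unadjusted p under 0.05 the whole-array count ran from 395 without wild type 3 to 1162 with array weights. The median of the 10 was -0.080 to 0.076 over single omissions, -0.098 with array weights and 0.084 with the Gapdh covariate. All lay closer to the main value than 0.12, the larger of the 2 genotypes' SDs between arrays in median deviation. That SD comes from the same arrays, so this closeness does not show that the median is stable. That larger SD is of the knockouts, whose medians were -0.14, 0.075 and 0.082 with knockout 1 low. The wild type medians spanned less, from -0.019 to 0.11. Snap25, Syp, Syt4 and Syt11 kept their direction in all 17. Several of these settings, such as the replicate block, probe set filters and a looser threshold, leave each difference unchanged. Those settings could not turn a direction. Directions turned for Syn2, Syt1, Stx1a, Nsf and both Vamp2 probe sets, of which 98925_at had a main difference of -0.19, and the cause was not tested. After quantile normalization Stx1a was 0.018 and Nsf -0.0055, after cyclic loess 0.023 and -0.0052, and after median centring Stx1a was 0.026. With array weights Syt1 was -0.18 and Nsf -0.069. With the Gapdh covariate Syn2 was 0.12, Vamp2 98925_at 0.12 and Stx1a 0.014. Over single omissions Syt1 ran from -0.17 to 0.35, Syn2 from -0.12 to 0.089, Vamp2 98925_at from -0.37 to 0.095, Vamp2 98926_at from -0.052 to 0.096, Stx1a from -0.037 to 0.029 and Nsf from -0.091 to 0.087. Replicate numbers gave no clear pairing of the arrays. Deviations of same-numbered arrays correlated at 0.16, -0.32 and 0.17, and only 1 of 3 wild type arrays correlated best with its own number. With the replicate number as a block, 0 probe sets passed. The smallest limma adjusted p was then 0.196, beside 0.841 without the block. The median of the 10 stayed at -0.0013, which a block in this balanced design cannot change. A batch shared by same-numbered arrays was not tested. The 95% intervals were widest at Syt1 (0.715 to 1.48 times wild type) and Vamp2 98925_at (0.653 to 1.18 times).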
